A study of Mus musculus with 24 samples.

Results

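Srf, its cofactor genes Mkl1 and Mkl2, and the matricellular genes Cyr61 and Ctgf were followed in the dorsal hippocampus of 24 mice, 1 RNA sequencing library per animal. The 5 genes were taken by symbol from a table of 19661 genes, and all 5 were among the 12399 genes that reached a mean of at least 1 RPKM (reads normalised to gene length and library depth) over the 24 libraries and entered the test. There were 4 groups of 6 animals. The genotypes were wild type, with strain background C57BL/6J, and Baf53b+/-, heterozygous mutants for the targeted allele Actl6b<tm1Grc> with B6J and 129S6 named as strain background. Of each genotype, 6 mice came directly from their cages and 6 were trained for Object Location Memory, a task about where objects stand in an arena, and killed 30 min later. Actl6b encodes BAF53b, a subunit of the neuronal BAF chromatin remodelling complex. No drug, transgene or Cre driver is named in the labels for any group, and ages were not given in the sources used here. Strain background went with genotype, so dose of BAF53b and strain cannot be told apart in a genotype comparison. Home cage animals were the only controls, so learning and the other parts of the arena experience cannot be told apart either.

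SRF is a DNA-binding factor of the MADS box family that sits on a short AT-rich element known as the CArG box. It acts with partners of 2 kinds. Ternary complex factors of the ETS family are switched on by MAP kinases and serve the immediate early genes of active neurons, whereas the myocardin-related factors encoded by Mkl1 and Mkl2 (now named Mrtfa and Mrtfb) bind monomeric actin and are released when actin polymerises. Cyr61 and Ctgf (now Ccn1 and Ccn2) encode secreted proteins of the CCN family that bind integrins. Both are textbook targets of SRF with its actin-linked cofactors and of the Hippo pathway factors YAP and TAZ with TEAD proteins.

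Depth ran from 28.4 to 47.0 M reads per library (median 34.5 M), as read from the steps of low RPKM values in 1003 single-exon genes. Actl6b, the gene that defines the genotype label, ranged from 46.4 to 54.4 RPKM in wild-type animals and from 27.3 to 32.4 RPKM in the heterozygotes. In 6 libraries the choroid plexus markers stood more than 1 log2 unit above the median library (1 wild-type home cage, 1 wild-type trained and 2 in each heterozygous group). By Xist and Ddx3y the animals were 3 males and 3 females in each group except the home cage heterozygotes, which were 5 males and 1 female. In limma with Benjamini-Hochberg adjustment over all 12399 genes, training called 134 genes in wild type and 128 in Baf53b+/-, and genotype called 1 gene in each condition.

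Mkl2 was the most abundant of the 5 transcripts per length and Cyr61 the least. Over the 24 animals the mean was 43.0 RPKM for Mkl2, 23.9 for Mkl1, 18.6 for Srf, 3.50 for Ctgf and 1.94 for Cyr61. Srf lay above 71.2% of the tested genes in mean RPKM, and Cyr61 above 10.4%. The lowest Mkl2 animal (34.5 RPKM) exceeded the highest Mkl1 animal (27.4 RPKM), and the lowest Cyr61 and Ctgf animals were alike (1.18 and 1.19 RPKM). Mkl1 and Srf levels did not overlap in the home cage, where Srf reached at most 18.7 RPKM and Mkl1 was at least 22.3. After training they did overlap, since the lowest Mkl1 animal had 20.3 RPKM and the highest Srf animal 21.2.

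**Figure D1:**
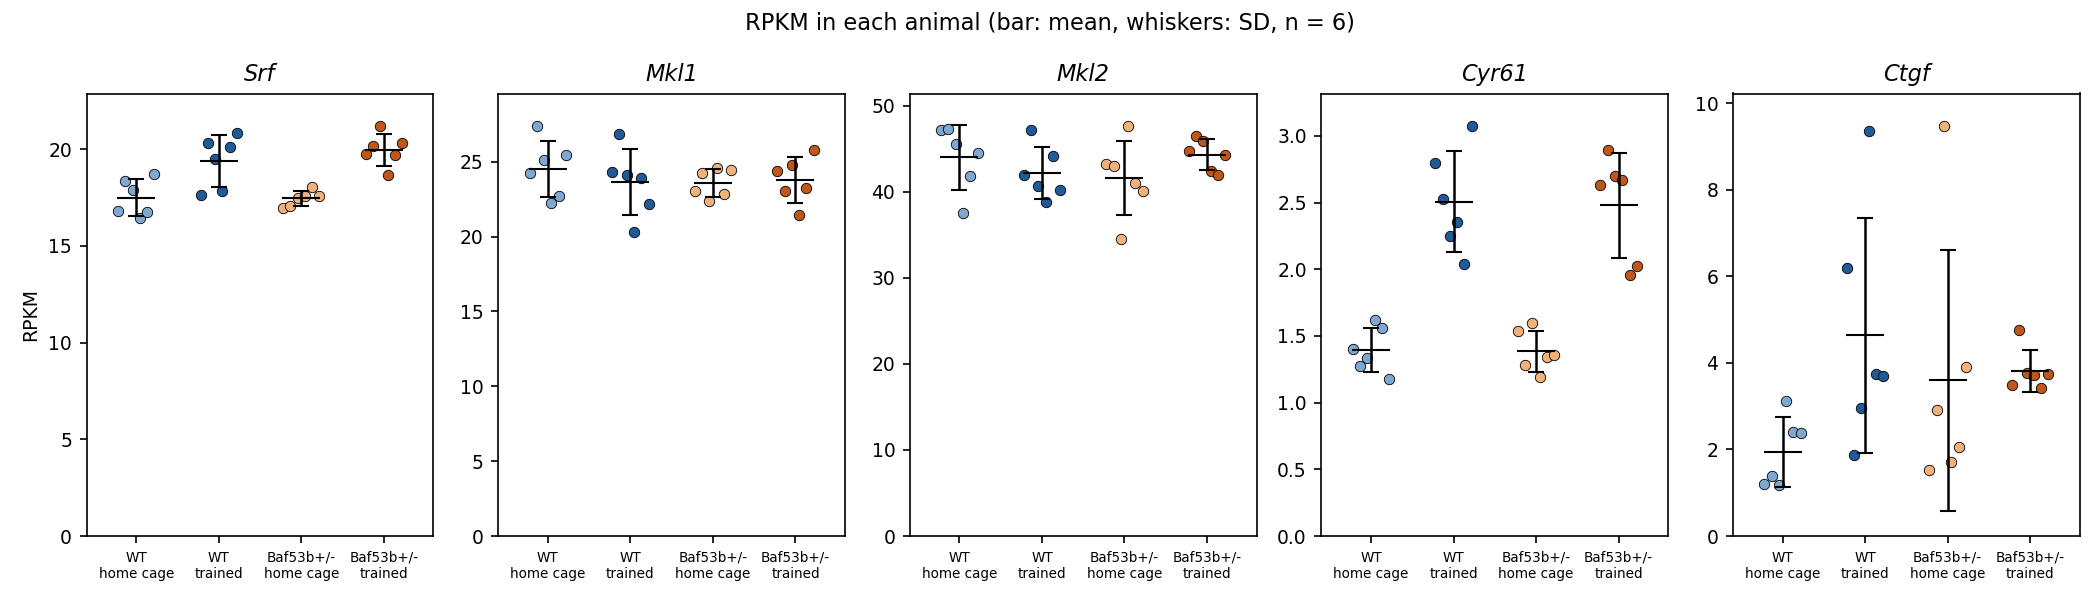
RPKM of Srf, Mkl1, Mkl2, Cyr61 and Ctgf in each of the 24 animals, with the group mean (bar) and SD (whiskers), 6 animals a group. Every trained animal lay above every home cage animal for Cyr61, and Ctgf spread from 1.19 to 9.46 RPKM.

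Srf rose after training in Baf53b+/- mice, by 1.14-fold, and by a similar amount in wild type, where the difference did not pass the test over all genes. The gene lies on chromosome 17 at 46683788 to 46693111 (mm9), and no other gene of the table overlaps it. In wild-type home cage animals Srf ran from 16.4 to 18.7 RPKM with a median of 17.4, and in trained wild-type animals from 17.6 to 20.8 with a median of 19.8. In Baf53b+/- it ran from 17.0 to 18.1 RPKM with a median of 17.5 in the home cage and from 18.7 to 21.2 with a median of 19.96 after training. The 2 heterozygous groups did not overlap, whereas in wild type 4 of 6 trained animals exceeded the highest home cage animal. An upward separation in Baf53b+/- was found in 1% of all tested genes.

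The Srf mean moved from 17.5 ± 0.949 to 19.4 ± 1.35 RPKM in wild type and from 17.5 ± 0.401 to 19.97 ± 0.831 in Baf53b+/- (SD, n = 6), ratios of 1.11 and 1.14. On the log2(RPKM + 0.5) scale used for all differences, limma gave 0.14 ± 0.04 in wild type (SE; adjusted p = 0.103; 95% interval 0.06 to 0.23) and 0.19 ± 0.04 in Baf53b+/- (adjusted p = 0.0171; 0.10 to 0.27). Two-sided exact permutation tests gave p = 0.0281 in wild type and p = 0.00216 in Baf53b+/-, the smallest value that 6 against 6 animals allow, and after Benjamini-Hochberg adjustment over 20 such tests of the 5 genes the exact p was 0.113 and 0.0144. Averaged over the genotypes the Srf difference was 0.16 ± 0.03 (limma adjusted p = 0.000889), and the responses of the genotypes differed by 0.05 ± 0.06 (limma adjusted p = 0.985; 95% interval -0.07 to 0.17). The heterozygous call was lost without trained animal 2414 (limma adjusted p = 0.0576) and without the 6 choroid-rich libraries (0.21 ± 0.06, limma adjusted p = 0.156).

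The Srf promoter itself carries the element that SRF binds, and it is shown because Srf is both the factor and, by known autoregulation, one of its own targets. The window of RefSeq (GRCm38.p6, minus strand, chr17:46556113-46556412) covers 250 bases before to 50 bases after the annotated start, written 5′ to 3′ with CArG boxes in capitals.
Srf: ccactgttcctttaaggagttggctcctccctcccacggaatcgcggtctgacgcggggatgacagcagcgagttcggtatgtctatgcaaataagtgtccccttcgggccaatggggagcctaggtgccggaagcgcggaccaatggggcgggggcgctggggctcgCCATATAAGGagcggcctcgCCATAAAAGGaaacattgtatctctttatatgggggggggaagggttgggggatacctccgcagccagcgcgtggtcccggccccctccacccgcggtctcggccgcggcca
It holds 2 CArG boxes, CCATATAAGG with its first base at position -82 and CCATAAAAGG at -62 relative to the start. Among all 32851 RefSeq promoter windows of this length, 1.63% held a CArG box. The ETS core CCGGAA, searched on both strands, was present at -122 and is held by 14.9% of windows.

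Neither cofactor gene changed detectably with training. Mkl1 (chromosome 15, 80842718 to 81021187) encodes the first of the actin-binding cofactors and Mkl2 (chromosome 16, 13256574 to 13417622) the second. No gene of the table overlaps either, though Sgsm3 lies 8 bases from Mkl1 and the libraries keep no strand. In wild type, Mkl1 ran from 22.3 to 27.4 RPKM in the home cage (median 24.7) and from 20.3 to 26.9 after training (median 24.04). In Baf53b+/- it ran from 22.4 to 24.6 RPKM in the home cage (median 23.6) and from 21.4 to 25.7 after training (median 23.8). The Mkl1 groups overlapped in every comparison.

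Mkl2 ran from 37.5 to 47.3 RPKM in wild-type home cage animals (median 45.0) and from 38.8 to 47.1 in trained ones (median 41.3). In Baf53b+/- it ran from 34.5 to 47.6 RPKM in the home cage (median 42.0) and from 41.9 to 46.5 after training (median 44.5). These groups overlapped too. The limma difference with training was -0.05 ± 0.06 (SE) for Mkl1 and -0.06 ± 0.06 for Mkl2 in wild type, and 0.01 ± 0.06 and 0.10 ± 0.06 in Baf53b+/-, with adjusted p of at least 0.616. The 95% intervals for Mkl1 were -0.17 to 0.06 in wild type and -0.11 to 0.13 in Baf53b+/-. Those for Mkl2 were -0.19 to 0.07 and -0.03 to 0.23. Mkl2 exceeded Mkl1 by a ratio of 1.8 ± 0.11 (SD, n = 24), from 1.54 to 2.02 in single animals.

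The RefSeq windows of Mkl1 (2 windows) and Mkl2 (3 windows) held no CArG box. Of 11 early genes listed as known SRF targets, 7 had a window, and 1 of these, Egr2, held a CArG box. Sequence outside the windows was not searched.

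Cyr61 rose by close to 1.8-fold after training in both genotypes. It lies on chromosome 3 at 145309935 to 145312949 (mm9) with no overlapping gene in the table. In wild-type animals it ran from 1.18 to 1.62 RPKM in the home cage, with a median of 1.37, and from 2.04 to 3.07 after training, with a median of 2.44. In Baf53b+/- it ran from 1.19 to 1.60 RPKM with a median of 1.35 in the home cage and from 1.95 to 2.90 with a median of 2.65 after training. The lowest of the 12 trained animals (1.95 RPKM) exceeded the highest of the 12 home cage animals (1.62 RPKM). A separation of this kind, upward, was found in 0.379% of tested genes over both genotypes, in 1.08% for wild type and in 1% for Baf53b+/-.

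The means were 1.40 ± 0.167 and 2.51 ± 0.377 RPKM in wild type (SD, n = 6) and 1.38 ± 0.153 and 2.48 ± 0.391 in Baf53b+/-, ratios of 1.796 and 1.789. Limma gave Cyr61 0.66 ± 0.09 in wild type (SE; adjusted p = 6.09e-05) and 0.65 ± 0.09 in Baf53b+/- (adjusted p = 8.41e-05), which ranked it 23 and 20 of 12399 genes by p. The exact permutation p was 0.00216 in each genotype, the smallest possible. The difference between the responses was -0.01 ± 0.13 (limma adjusted p = 0.997; 95% interval -0.27 to 0.25). This log2 scale understates the change of a gene as low as Cyr61, which had between 38.5 and 101 reads per kilobase in a library. Without the choroid-rich libraries the Cyr61 difference was 0.71 ± 0.10 in wild type and 0.69 ± 0.11 in Baf53b+/-.

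The Cyr61 promoter is shown for comparison with that of Srf, from the same RefSeq table (GRCm38.p6, minus strand, chr3:145649936-145650235), with the TEAD-type hexamer, GGAATG or its reverse CATTCC, in capitals.
Cyr61: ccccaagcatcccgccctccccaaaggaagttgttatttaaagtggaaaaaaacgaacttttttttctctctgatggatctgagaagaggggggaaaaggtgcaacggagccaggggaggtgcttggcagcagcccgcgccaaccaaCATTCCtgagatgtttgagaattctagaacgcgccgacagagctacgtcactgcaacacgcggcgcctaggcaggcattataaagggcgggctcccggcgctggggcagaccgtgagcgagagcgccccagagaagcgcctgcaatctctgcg
The hexamer stood at -103 and is found in 14.7% of all windows. A CRE-type core, TGACG or its reverse CGTCA, lay at -58, is found in 20.8% of windows, and stands in the Srf window too, at -201. No CArG box lay in this window.

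**Figure D2:**
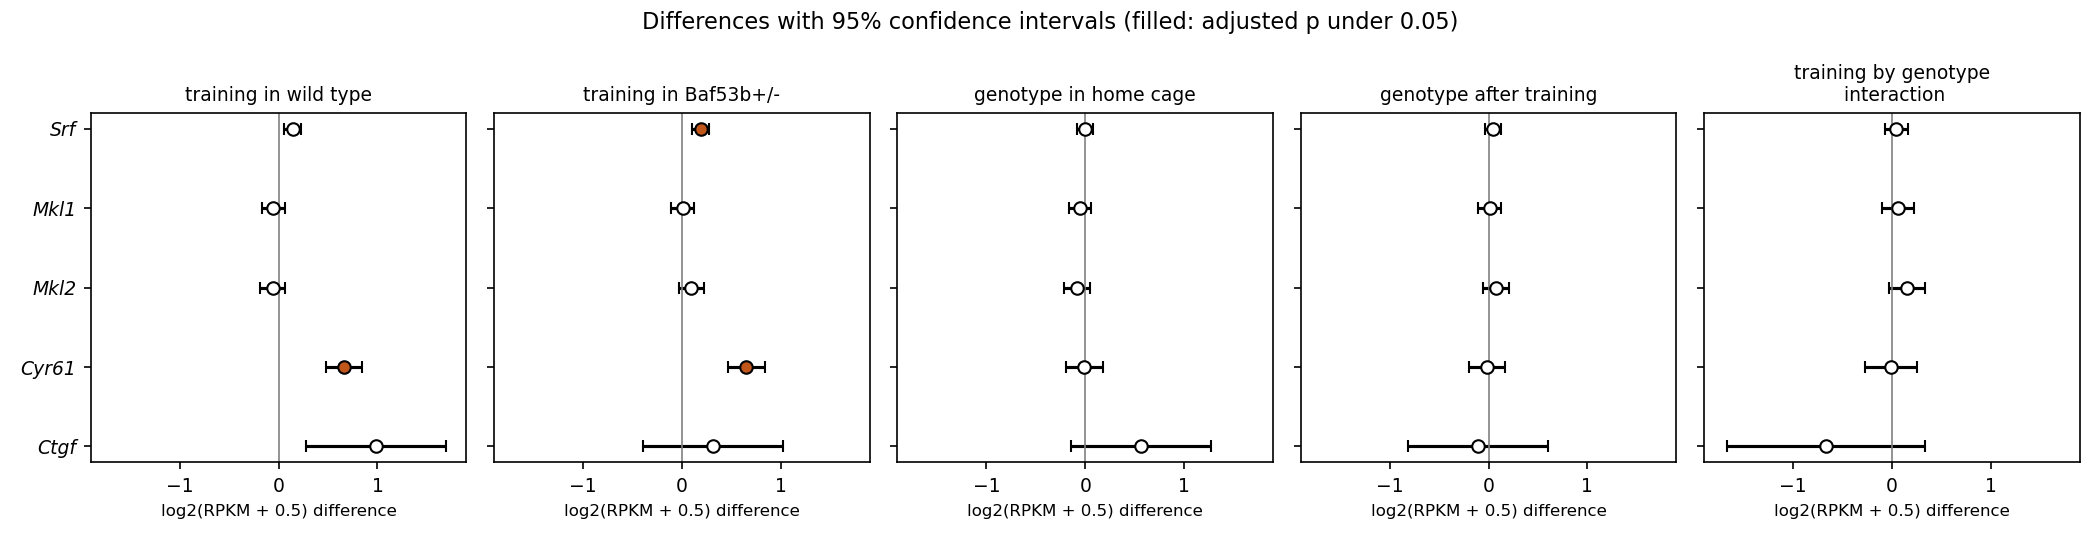
Differences in log2(RPKM + 0.5) for the 5 genes in 5 comparisons, with 95% confidence intervals from limma; filled points have a Benjamini-Hochberg adjusted p under 0.05 over 12399 genes. Filled points are Cyr61 with training in both genotypes and Srf with training in Baf53b+/-.

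Ctgf had a higher mean in trained than in home cage wild-type animals, but its spread among animals was so wide that it passed no test over all genes. The gene lies on chromosome 10 at 24315248 to 24318488 (mm9). It ran from 1.19 to 3.11 RPKM in wild-type home cage animals, with a median of 1.88, and from 1.86 to 9.37 in trained ones, with a median of 3.72. In Baf53b+/- the range was 1.52 to 9.46 RPKM in the home cage, with a median of 2.49, and 3.43 to 4.76 after training, with a median of 3.73. In wild type 4 of 6 trained animals exceeded the highest home cage animal, and in Baf53b+/- none did. Home cage animal 2415 had the highest Ctgf value of the series. Home cage animal 2424, at 3.90 RPKM, also exceeded every trained heterozygote except animal 2410, at 4.76 RPKM.

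The Ctgf means were 1.94 ± 0.80 and 4.64 ± 2.72 RPKM in wild type (SD, n = 6) and 3.595 ± 3.01 and 3.82 ± 0.481 in Baf53b+/-. Limma gave 0.98 ± 0.34 in wild type (SE; adjusted p = 0.223, exact permutation p = 0.026, or 0.113 adjusted over the 20 exact tests) and 0.31 ± 0.34 in Baf53b+/- (adjusted p = 0.797, exact permutation p = 0.435). Averaged over the genotypes the difference was 0.65 ± 0.24 (limma adjusted p = 0.15). Without animal 2415 that average was 0.80 (limma adjusted p = 0.0251) and the Baf53b+/- difference 0.62 ± 0.29 (limma adjusted p = 0.593). With 1 animal left out in turn the Baf53b+/- difference ranged from 0.16 to 0.62, and with the mural marker value as a covariate it was 0.06 ± 0.37 (limma adjusted p = 0.979). The SD of Ctgf within groups, 0.61 log2 units, was larger than that of 99.4% of tested genes, against 83.9% for Cyr61, 66.6% for Mkl2, 57.6% for Mkl1 and 27.2% for Srf.

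Markers of the deep cortical layers moved with Ctgf among animals of the same group. Ctgf is known as a marker of layer 6b, the thin sheet of cortex next to the white matter above the dorsal hippocampus. A list of 6 deep cortex markers (Cplx3, Nxph4, Moxd1, Tbr1, Rprm and Foxp2) was compared with it as deviations from group means. Tbr1 and Rprm are also expressed in hippocampal neurons. They made up most of the summed RPKM of the list, for instance 17.9 and 12.5 of 34.0 in animal 2402. The mean log2 value of the list followed Ctgf with Pearson r = 0.87 (n = 24, permutation p = 1e-05, the smallest possible; Benjamini-Hochberg p = 0.0003 over 60 relations of 5 genes with 12 marker lists) and Spearman rho = 0.77 (permutation p = 2e-05; adjusted p = 0.0012). Without the 2 libraries farthest from the median of the marker value, r was 0.73. The summed markers ran from 34.0 to 36.9 RPKM in wild-type home cage animals, 33.1 to 45.5 in trained wild type, 32.2 to 51.9 in home cage Baf53b+/- and 33.7 to 39.9 in trained Baf53b+/-, and none of the 6 had a group mean of 0. Animal 2415 was highest, with Cplx3 at 5.72 RPKM and Nxph4 at 1.76, and trained wild-type animal 2421, at 9.37 RPKM of Ctgf, was second.

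Dentate gyrus markers moved the other way. Across animals they fell with rising Ctgf (r = -0.78, rho = -0.65, n = 24, permutation p = 6e-05 and 0.0009, adjusted p = 0.0009 and 0.0108, r = -0.52 without the 2 farthest libraries). CA3 markers fell with it too (r = -0.69, rho = -0.57, permutation p = 0.00022 and 0.00396, adjusted p = 0.00264 and 0.0396). CA1 markers, also hippocampal, rose with it (r = 0.61, rho = 0.70, permutation p = 0.00181 and 0.00021, adjusted p = 0.0181 and 0.0042). The summed 6 dentate markers were lowest in animal 2415, at 49.2 RPKM, and next lowest in animal 2421, at 70.2, against up to 140 in animal 2410. No CA1, CA3 or dentate marker of the lists had a group mean of 0, which does not measure how much of each region a library held. In RNA from whole tissue, fewer cells of a type and less RNA per cell cannot be told apart. With the deep cortex value as a covariate, a choice made after the values were seen, the Ctgf difference with training was 0.62 ± 0.17 in wild type (limma adjusted p = 0.0873) and 0.47 ± 0.17 in Baf53b+/- (adjusted p = 0.261), and averaged over the genotypes it was 0.54 ± 0.12 (adjusted p = 0.00765). Without animals 2415 and 2421 the average was 0.69 ± 0.18 (adjusted p = 0.0292).

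**Figure D3:**
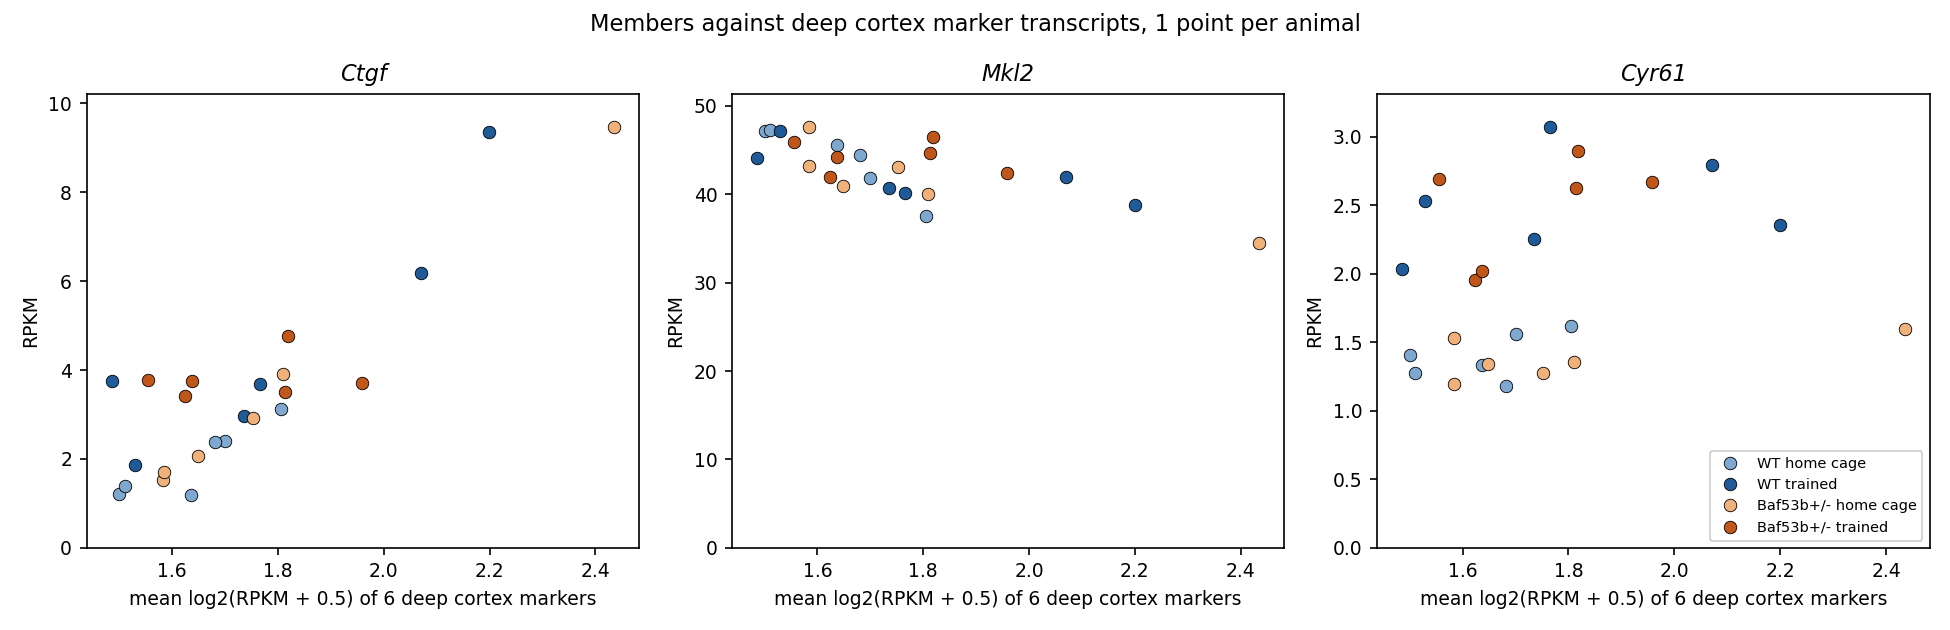
RPKM of Ctgf, Mkl2 and Cyr61 against the mean log2(RPKM + 0.5) of 6 deep cortex markers, 1 point per animal, coloured by group. Ctgf is higher and Mkl2 lower towards the right, with animals 2415 and 2421 farthest right, and Cyr61 separates trained from home cage animals along the whole axis.

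The other genes related to the same regional markers to different degrees. Mkl2 was higher with dentate gyrus markers (r = 0.81, rho = 0.74, n = 24, permutation p = 1e-05 and 7e-05, adjusted p = 0.0003 and 0.0021; r = 0.72 without the 2 farthest libraries) and lower with deep cortex markers (r = -0.74, rho = -0.65, permutation p = 3e-05 and 0.00078, adjusted p = 0.0006 and 0.0108; r = -0.59 without the 2 farthest). For Mkl1 and the deep cortex markers r was -0.56 and rho -0.49 (n = 24, permutation p = 0.00414 and 0.0162, adjusted p = 0.031 and 0.0884), so that r passed and rho did not. For Srf and these markers r was -0.51 and rho -0.49 (permutation p = 0.0104 and 0.0154, adjusted p = 0.0505 and 0.0884). With CA3 markers Srf had r = 0.52 and rho = 0.55 (permutation p = 0.00913 and 0.0061, adjusted p = 0.0498 and 0.0523). By r but not by rho, Mkl1 passed with CA3 markers (r = 0.57, permutation p = 0.00367, adjusted p = 0.031) and dentate markers (r = 0.55, permutation p = 0.00585, adjusted p = 0.039). The permutations made no allowance for the group means removed, so the p-values tend to be too small. Calls with an adjusted p near 0.05 are therefore not firm. For Cyr61 and the deep cortex markers r was 0.41 and rho 0.44 (permutation p = 0.0437 and 0.0326; adjusted p = 0.125 for r). With that marker value as a covariate the Cyr61 difference was 0.62 ± 0.09 in wild type and 0.67 ± 0.08 in Baf53b+/-. For Srf it was 0.17 ± 0.04 in wild type, with a limma adjusted p of 0.0234, and 0.18 ± 0.04 in Baf53b+/-.

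Among pairs of the 5 genes, 10 in all, the cofactor genes varied together within groups. Mkl1 and Mkl2 had r = 0.67 and rho = 0.65 (n = 24, permutation p = 0.0004 and 0.00083, adjusted p = 0.002 and 0.0083; r = 0.66 without the 2 farthest libraries). Srf and Mkl1 had r = 0.54 and rho = 0.50 (permutation p = 0.00574 and 0.0142, adjusted p = 0.0191 and 0.0474; r = 0.57 without the 2 farthest). The same limit of the permutations applies to these pairs, and the rho of Srf and Mkl1 passed only narrowly. Mkl2 and Ctgf went in opposite directions, with r = -0.77 and rho = -0.62 (permutation p = 2e-05 and 0.00167, adjusted p = 0.0002 and 0.00835; r = -0.63 without the 2 farthest). For Mkl1 and Ctgf, r = -0.52 passed (permutation p = 0.0092, adjusted p = 0.023) and rho = -0.30 did not (permutation p = 0.153, adjusted p = 0.219). Cyr61 and Ctgf had r = 0.26 and rho = 0.29 (permutation p = 0.225 and 0.176). Mkl2 and Ctgf moved with the regional markers described above, whose part in these pairs was not tested.

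The genes closest to Cyr61 over the 24 animals, by Pearson correlation of log2 values, were immediate early genes that rose with training. They were the MAP kinase phosphatase Dusp1 (r = 0.95), Fos (0.94), Arc (0.93), Ier2 (0.93) and the nuclear receptor Nr4a1 (0.93). Dusp1 moved from 5.57 ± 0.729 to 12.5 ± 2.73 RPKM in wild type (SD, n = 6). Once group means were removed, the closest to Cyr61 were Surf1 (r = 0.81), Nudt17 (0.71) and Ntan1 (0.71).

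Srf was closest to the co-chaperone gene Dnajb5 (r = 0.87), the kinase gene Mknk2 (0.85), Egr4 (0.84), Egr3 (0.83) and Junb (0.83). Within groups it was closest to Asphd2, Cnih2 and Sh3bgrl3 (r from 0.81 to 0.84). Mkl1 was closest to Cplx2 (0.85) and the actin regulator Wasf1 (0.85), followed by Chst1, BC018242 and Foxk1, and within groups to Wasf1, Chst1 and Lrrn2 (r from 0.86 to 0.88). Mkl2 was closest to Lyst (0.92), followed by Sema5a, Ncoa1, the formin gene Diap2 and Slc7a14 (r from 0.89 to 0.90), and within groups to Lyst, Slc7a14 and Ncoa1. Ctgf was closest to the Krüppel-like factor genes Klf6 (0.88) and Klf5 (0.86), then to Kcnk3, Dpysl5 and Map3k9, and within groups to Olfm2, 3110035E14Rik and Dpysl5 (r from 0.86 to 0.88). These likenesses describe 24 shared libraries and carry no test.

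Training called 1 of the 5 genes in wild type, where 1.08% of all tested genes were called, and 2 of 5 in Baf53b+/-, where 1.03% were. Averaged over genotypes 2 of 5 were called, against 4.17%. The 5 genes were chosen with earlier results of these data known, so these shares are descriptive. The 2 training comparisons have no animals in common.

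Genotype called none of the 5 genes, in the home cage (0.00807% of all tested genes), after training (0.00807%) or averaged over the conditions (0.0242%), and the interaction called none (0%). None of the 5 had an unadjusted limma p under 0.05 in the home cage (3.52% of tested genes did), after training (3.69%), averaged over the conditions (4.49%) or for the interaction (2.49%), and none an exact permutation p under 0.05 in the 2 single genotype comparisons. In the home cage the limma difference, Baf53b+/- minus wild type, was 0.00 ± 0.04 for Srf (SE; 95% interval -0.09 to 0.08) and -0.01 ± 0.09 for Cyr61 (-0.19 to 0.18). After training it was 0.04 ± 0.04 for Srf (-0.04 to 0.13) and -0.02 ± 0.09 for Cyr61 (-0.20 to 0.17). For Ctgf the difference was 0.57 ± 0.34 in the home cage (-0.14 to 1.27), where it fell to 0.26 without animal 2415, and -0.10 ± 0.34 after training (-0.81 to 0.61). The lowest interaction p among the 5 was that of Mkl2, 0.16 ± 0.09 (limma adjusted p = 0.985), with means that moved from 44.0 to 42.1 RPKM in wild type and from 41.6 to 44.3 in Baf53b+/-. With the deep cortex value as a covariate it was 0.07 ± 0.06.

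The pathway lists differed in how many of their genes were called. All were chosen with earlier results of these data known, so the counts describe the lists and do not test them. Of 11 early genes listed as known SRF targets, 10 rose in wild type and 11 in Baf53b+/-, where 1.08% and 1.03% of all tested genes were called, with a median log2 difference of 1.14 and 1.21 against 0.01 and 0.00 over all tested genes. Fos, a member of the AP-1 factors, rose by 2.63 ± 0.18 in wild type (SE; limma adjusted p = 2.75e-09) and Egr2 by 2.03 ± 0.13 (adjusted p = 4.72e-10), and Arc, which shapes synapses, rose by 1.89 ± 0.15 (adjusted p = 1.53e-08). In RPKM, wild-type Fos moved from 1.89 ± 0.687 to 14.3 ± 4.58 and Egr2 from 0.314 ± 0.136 to 2.86 ± 0.852 (SD, n = 6). The log2 scale understates the change of genes this low, most of all that of Egr2. Nr4a1 rose by 1.40 ± 0.10, Egr1 by 1.21 ± 0.07 and Junb by 1.14 ± 0.08, all with a limma adjusted p of at most 3.05e-09. Mcl1, which opposes apoptosis, rose by 0.30 ± 0.04 (adjusted p = 7e-05). The early gene that missed the test in wild type was Egr3 (0.22, limma adjusted p = 0.249). In Baf53b+/- it rose by 0.36 ± 0.08 (adjusted p = 0.0199), and the responses of the genotypes differed by 0.14 ± 0.11 (adjusted p = 0.985). In wild type the Cyr61 difference lay between that of Mcl1 and that of Egr4 (0.96 ± 0.07), and in Baf53b+/- the Srf difference lay below those of all 11.

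The other lists are read against the share of all tested genes with an unadjusted p under 0.05 for training, which was 11.1% in wild type, 11% in Baf53b+/- and 16.8% averaged over genotypes, and against the 4.17% called in the average. None of the 26 tested cytoskeletal genes listed as SRF targets passed limma in either genotype (3 and 6 at an unadjusted p under 0.05), with medians of 0.06 and 0.08. Averaged over genotypes 8 of 26 had an unadjusted p under 0.05, a larger share than the 16.8% of all genes. The 6 of 26 in Baf53b+/- also exceeded the 11% of all genes. Whether the list differs from all genes was not tested. In the average 1 gene of the 26 was called and rose, a share near the 4.17% of all genes. It was the non-muscle myosin gene Myh9 (0.11 ± 0.03, SE; limma adjusted p = 0.0175), which moved from 14.9 ± 0.802 to 15.9 ± 0.491 RPKM in wild type (SD, n = 6). Filip1l, next by p, gave 0.18 ± 0.05 (adjusted p = 0.0505). In Baf53b+/- Myh9 had the lowest p (adjusted p = 0.158). The smooth muscle actin gene Acta2, which also marks mural cells, came next there, at 0.43 ± 0.15 (adjusted p = 0.279). The summed mural markers ran from 35.7 to 48.1 RPKM in wild-type home cage animals, 40.2 to 49.3 in trained wild type, 37.8 to 49.2 in home cage Baf53b+/- and 43.5 to 53.4 in trained Baf53b+/-, and none of the 8 had a group mean of 0. Of the 8, Acta2, Tagln and Myh11 stand in both lists. The part of mural cells in these values was not tested.

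Of the upstream genes 1 was called, in the average, where 4.17% of all genes were. Among 6 tested cofactors and partners of SRF outside the Mkl pair, which include ternary complex factors, none passed in either genotype or averaged over genotypes (1 at an unadjusted p under 0.05 in wild type, 0 in Baf53b+/- and 1 in the average). The LIM protein gene Fhl2 came nearest, with an averaged difference of -0.11 ± 0.04 (SE; limma adjusted p = 0.172). Of 21 genes that carry the actin signal, the cofilin phosphatase gene Ssh2 rose in the average (0.09 ± 0.02, adjusted p = 0.0222) and none passed in a single genotype (2 and 1 at an unadjusted p under 0.05). Of 14 genes of the MAP kinase route to the ternary complex factors none passed (0 and 0 in the single genotypes and 1 in the average at an unadjusted p under 0.05), and the kinase gene Rps6ka5 had the lowest p in the average, at -0.07 ± 0.03 (adjusted p = 0.254).

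On the Hippo side too, 1 gene was called in the average, a share near that of all genes. Of 18 tested genes of the Hippo pathway and its TEAD factors none passed in a single genotype (2 and 4 at an unadjusted p under 0.05). The 4 of 18 in Baf53b+/- were a larger share than the 11% of all genes. In the average over genotypes 5 of 18 had an unadjusted p under 0.05, more than the 16.8% of all genes. Whether the list differs from all genes was not tested. The gene called in the average was Amotl2, which rose. Amotl2 encodes an angiomotin that binds YAP and is also a known YAP target. It moved from 4.07 ± 0.51 to 4.72 ± 0.274 RPKM in wild type and from 4.04 ± 0.421 to 4.73 ± 0.496 in Baf53b+/- (SD, n = 6), with an averaged difference of 0.20 ± 0.05 (SE; limma adjusted p = 0.0267). It was the single gene called of 15 tested YAP and TAZ targets other than Cyr61 and Ctgf, where the coagulation factor receptor gene F3 came next (0.12 ± 0.04, adjusted p = 0.1). Of these 15, 3 in wild type, 1 in Baf53b+/- and 2 in the average had an unadjusted p under 0.05. The wild-type share exceeded the 11.1% of all genes, and the other shares did not exceed theirs. Whether this list differs from all genes was not tested. Of 10 tested genes of the CCN family and its receptors none passed in the average (2 at an unadjusted p under 0.05, against 16.8% of all genes) or in a single genotype (1 and 1). Lrp6, a Wnt coreceptor, had the lowest p of these, at 0.10 ± 0.04 (adjusted p = 0.134).

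**Figure D4:**
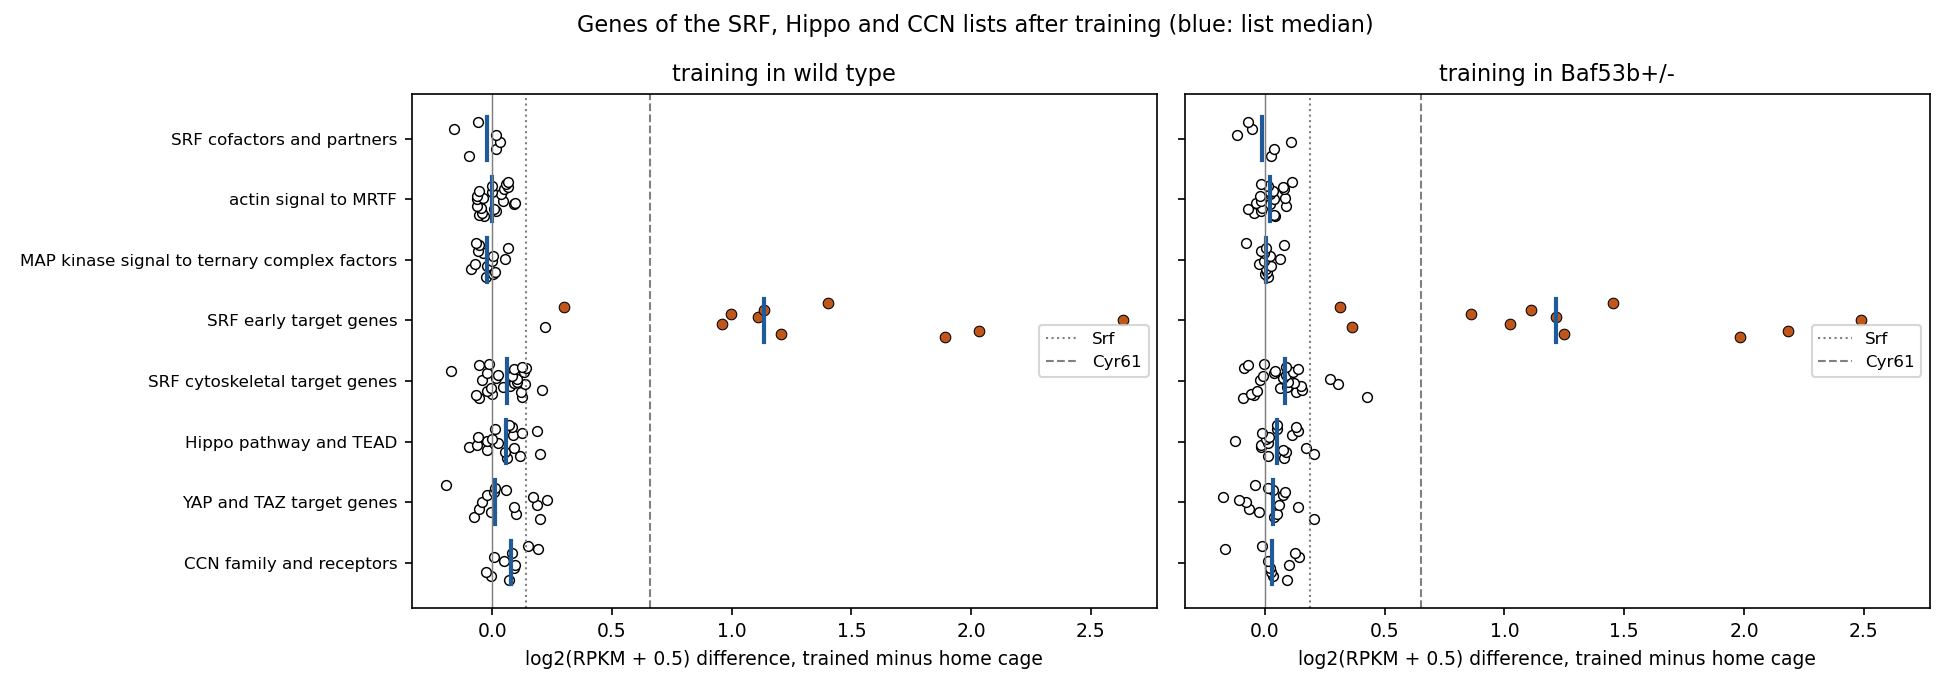
Trained minus home cage differences in log2(RPKM + 0.5) for every tested gene of 8 lists, by genotype; filled points have a limma adjusted p under 0.05, the blue line is the list median, and the dotted and dashed lines give Srf and Cyr61. The filled points are all among the early target genes.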

How the data were processed

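The authors deposited 1 table of RPKM values, 1 column per animal, with mm9 positions. Per the labels' protocols, RNA came from RNeasy columns and TruSeq v2 libraries, which keep no strand, read single-end on an Illumina HiSeq after pooling into 4 multiplexes; no label ties an animal to a pool, and no batch was fitted. CASAVA 1.8.2 and Bowtie 0.12.8 were used, per the submitters' processing notes. Annotation, RPKM read total and the handling of multiply matching reads were not given in the sources used here.

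From these values, log2(RPKM + 0.5) was fitted with limma 3.58.1 in R 4.3.3 (4 groups in 1 model, trend and robust empirical Bayes, Benjamini-Hochberg threshold 0.05) for genes averaging 1 RPKM or more. The fit and the depth estimate were tested on simulated data. In the depth estimate, 48.0% to 55.8% of values of up to 30 reads lay within 0.05 reads of a whole number. A count test was not used, since most genes have several exons. Correlation tests drew 100000 permutations. Named genes are the 5 genes, called or lowest-p members of the 8 pathway lists, and the 5 closest genes over animals and 3 within groups for each of the 5; Mcl1, Egr3 and Egr4 were named after their values were seen. The 5 genes and the lists were chosen with earlier results of these data known. Of 5 blood markers 2 were in the table. The labels name separate animals. Promoters were found for 4 of the 5 genes, Ctgf being the exception.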

Additional observations from a re-analysis of the deposited data

Results flagged for a closer look

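Ctgf in home cage Baf53b+/- animals had 1 library far above the other 5: animal 2415 at 9.46 RPKM, with a gap to the next animal of 0.70 of the group's range. Ctgf in trained Baf53b+/- animals also had 1 library apart, animal 2410 at 4.76 RPKM, with a gap of 0.738 of the range. Both exceed Dixon's 95% critical value for 6 samples. Over the 20 groups checked (5 genes in 4 groups) chance would flag about 1. Animal 2415 was highest of the 24 in deep cortex markers and lowest in dentate gyrus markers, and animal 2410 was highest in summed dentate gyrus markers. By the mean log2 value of the dentate markers animal 2433 stood above animal 2410 (4.09 against 4.06). In summed deep cortex markers animal 2410 ranked 4 of 24. The part of these markers in the 2 values was not tested.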

How the results depend on the processing

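Each of the 7 comparisons was recomputed without each of the 24 animals and under up to 16 other settings. No value of the 5 genes reversed among called results, and 1375 of 1385 recomputed values kept their direction and side of the threshold or stayed uncalled. Cyr61 stayed called with training in both genotypes under all 40 alternatives, between 0.55 and 0.80 in wild type and 0.54 and 0.79 in Baf53b+/-. Srf averaged over genotypes stayed called in all 39 (adjusted p up to 0.0223). Srf in Baf53b+/- was lost with the mural markers as a covariate (0.19, adjusted p = 0.0531) and without the choroid-rich libraries (0.21), and ranged from 0.17 to 0.21 with 1 animal left out. Srf in wild type passed with the deep cortex (0.17) or dentate markers (0.16, adjusted p = 0.0336) as a covariate and without trained animal 2403 (adjusted p = 0.0465), with a range of 0.12 to 0.17 over animals left out. Averaged Ctgf passed with the deep cortex (0.54) or dentate markers (0.68) as a covariate and without the 2 libraries highest in deep cortex markers (0.69), and ranged from 0.54 to 0.80 with 1 animal left out. The 3 settings on deep cortex and dentate markers were chosen after seeing the data.

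Counts over all genes moved more. Fitting only the groups compared gave 75 calls in wild type and 85 in Baf53b+/-, leaving out the choroid-rich libraries gave 65, 51 and, averaged, 262, and the mural covariate gave 83 in Baf53b+/- and 326 averaged. Genotype after training called 2 genes in place of 1 with a pseudocount of 1, upper quartile scaling, no trend, either regional covariate or the 2 libraries removed, and 1 to 2 with 1 animal left out. Averaged genotype called 5 in place of 3 with no filter or a minimum mean of 0.1 RPKM. Quantile normalization changed the split in wild type from 119 higher and 15 lower to 73 and 20, and in the average from 404 and 113 to 303 and 180. The cause of these changes was not tested. Where libraries were left out, fewer samples also entered the fit. No paired analysis was possible because every animal has its own number. Depth limits Cyr61 and Ctgf most, with as few as 38.5 and 40.3 reads per kilobase.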
